A study of Mus musculus with 6 samples.

Results

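The tumour necrosis factor (TNF) superfamily was followed in synovial fibroblasts after systemic immune complex (IC) challenge. Its genes were taken by symbol from the table of read counts. They were the symbols that begin with Tnfsf or Tnfrsf and a digit, together with Tnf, Lta, Ltb, Ltbr, Fas, Fasl, Cd40, Cd70, Eda, Edar, Eda2r and Relt. Ngfr was left out by the rule. The rule used names alone and found 37 of 24348 genes, of which 13 encode ligands, 23 encode receptors and 1, Tnfsf13os, is an antisense RNA. Lta, Cd70, Tnfsf4, Tnfsf11, Tnfrsf13b, Tnfrsf13c and Tnfrsf17 were not analysed here.

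The synovium is the soft tissue that lines joints. Adult C57BL/6 wild-type mice received IC or vehicle intravenously, the synovium was digested with collagenase, and fibroblasts were sorted by flow cytometry for total RNA-seq. The labels give both groups the same genotype, and the ICs of the study were ovalbumin bound by rabbit antibodies against it. Each group had 3 libraries, with 40114331 to 56714304 counts per library. The sources used here give neither the sort markers of the fibroblasts, the interval after injection, nor whether each library came from 1 mouse, so p-values measure the spread between these libraries, which may be technical.

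Ligands of this superfamily are mostly trimers, held on the cell surface or shed from it, that cluster receptors on a neighbouring cell. Receptors with a death domain, such as Fas and Tnfrsf1a, can recruit caspases, whereas most others recruit TRAF adaptors and lead to NF-kB. Another kind binds a ligand without signalling and acts as a decoy. In the joint, TNF acts on fibroblasts and is a drug target in arthritis, and the ligand Tnfsf11 (RANKL), its receptor Tnfrsf11a (RANK) and the decoy Tnfrsf11b (osteoprotegerin) set the formation of bone-resorbing osteoclasts.

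A short DNA motif bound by STAT factors was looked for upstream of the superfamily genes. RefSeq promoter sequence (GRCm38.p6) was matched to 29 of the 37 genes, and the 250 bases before each gene start were searched on both strands for this gamma-activated site, TTCNNNGAA, and for the NF-kB site. The gamma-activated site was present in 5 of the 29 windows (17.2%), those of Tnfrsf1a, Tnfrsf1b, Fas, Tnfrsf18 and Ltb, against 7.18% of 27025 windows over all genes. The NF-kB site was present in 2 of the 29 windows (6.9%), those of Tnfrsf8 and Ltb, against 7.01%. A match is a description of the letters and was not tested. The windows of 2 well-measured receptors are shown because their counts are followed below, with the gamma-activated site in capitals. It lies 181 to 173 bases before the start of Tnfrsf1b (chr4:145246871-145247120, minus strand) and 93 to 85 bases before that of Fas (chr19:34290409-34290658, plus strand). For Fas this start is that of the promoter sequence, and the GENCODE start given below (34290666) lies slightly further downstream.
Tnfrsf1b: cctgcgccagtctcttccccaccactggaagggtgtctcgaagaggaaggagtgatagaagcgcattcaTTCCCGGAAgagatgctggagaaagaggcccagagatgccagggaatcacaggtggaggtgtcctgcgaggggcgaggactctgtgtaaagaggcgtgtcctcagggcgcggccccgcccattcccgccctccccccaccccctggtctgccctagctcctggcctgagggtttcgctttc
Fas: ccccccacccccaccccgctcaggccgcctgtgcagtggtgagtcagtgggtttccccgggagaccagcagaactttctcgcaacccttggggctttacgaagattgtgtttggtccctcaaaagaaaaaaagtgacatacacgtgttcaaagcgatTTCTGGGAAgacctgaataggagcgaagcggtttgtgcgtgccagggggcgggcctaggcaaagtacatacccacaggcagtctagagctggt

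Receptors dominated the superfamily in these cells. In vehicle libraries the level was highest for Tnfrsf1a, the death-domain receptor of TNF, at 3697 ± 244 normalized counts per kilobase of exon (SD, n = 3). A normalized count is the read count divided by the size factor of the library. Tnfrsf12a (Fn14, the receptor of TWEAK) followed at 1698 ± 133 per kilobase, and its 3 vehicle values lay apart from those of its neighbours on either side. Ltbr, the lymphotoxin beta receptor, at 1288 ± 171, and Tnfsf9, the ligand of the costimulatory receptor Tnfrsf9, at 1154 ± 48.0, came next, and their vehicle values overlapped. Tnfsf12 (TWEAK) at 654 ± 54.1 and Tnfrsf1b, the other TNF receptor, at 606 ± 61.0 per kilobase also overlapped, as did Tnfrsf14 (467 ± 76.1) and Fas (465 ± 49.3). Below Eda (266 ± 33.2), neighbours in the order of vehicle levels overlapped in every case except Tnfsf13 and Tnfrsf23.

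Tnfrsf1a alone gave 35.1% of all counts of the superfamily over the 6 libraries, and Tnfrsf12a, Ltbr and Tnfrsf1b gave 12.3%, 10.3% and 8.50%. All 37 genes together held 0.0585% to 0.0663% of the counts of a library. The order depended little on which length was used, since no gene moved by over 3 places when the longest transcript replaced all exons. With the longest transcript, the vehicle values of Ltbr and Tnfsf9 no longer overlapped. An order without any scaling by length was not compared. Of the 37 genes, 32 had at least 10 counts in at least 3 libraries and were tested. The 5 others were Fasl, Ltb, Tnfrsf8, Tnfrsf9 and Tnfsf18, whose highest counts in any library were 16, 5, 14, 15 and 10.

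**Figure D1:**
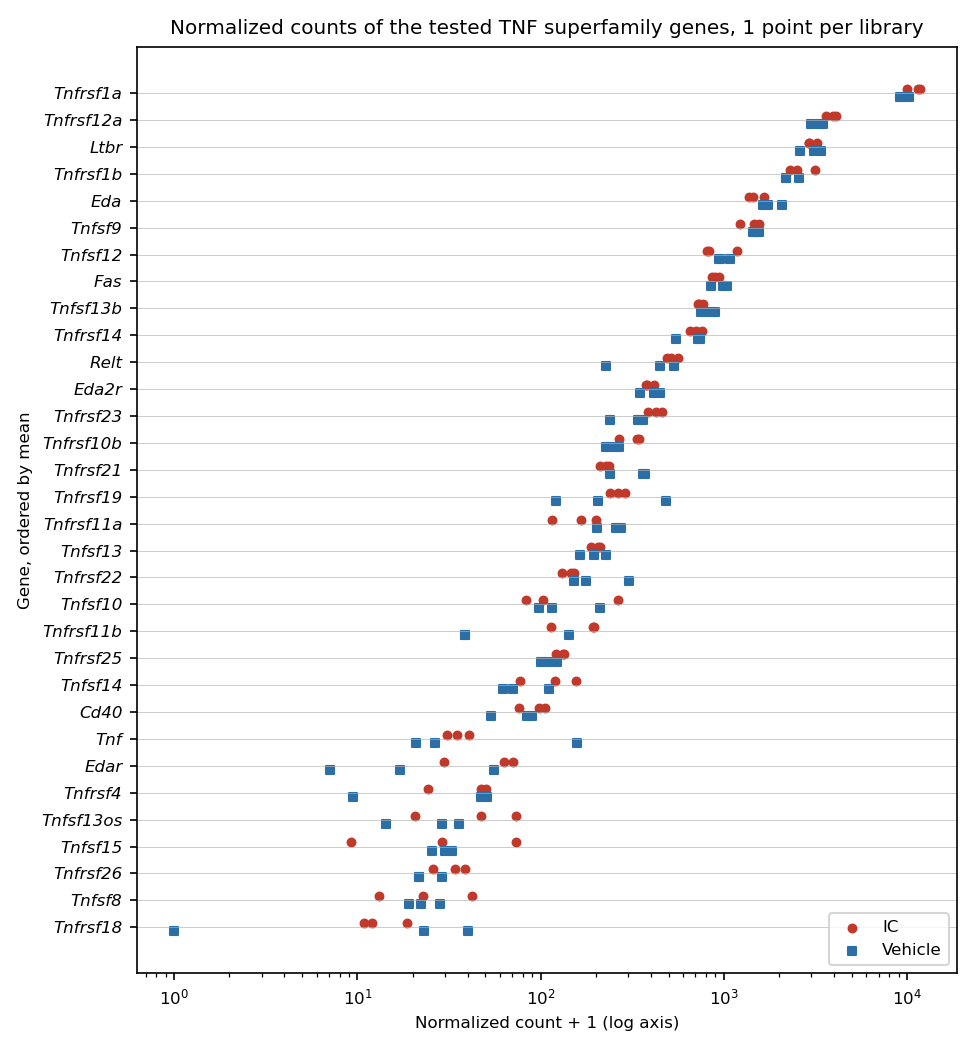
Normalized counts (plus 1, log axis) of the 32 tested genes, ordered by mean, with 1 point for each of 3 IC (circles) and 3 vehicle (squares) libraries. Tnfrsf1a lies between 9115 and 11727 in every library, whereas Tnf lies at 19.8 to 39.7 in all libraries but vehicle replicate 1 (157), and the points of most genes overlap between groups.

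No gene of the superfamily passed the test after IC. With the Wald test of DESeq2, 0 of 32 had an adjusted p under 0.05 (Benjamini-Hochberg, over all genes tested) and counted as called, against 2.10% of the 19925 genes tested (1.03% higher and 1.07% lower). Their adjusted p ran from 0.222 to 0.995, and 4 of the 32 (Tnfrsf18, Tnfrsf26, Tnfsf8 and Tnfsf15) received none because of low counts. The quasi-likelihood test of edgeR called 0 (lowest adjusted p 0.358) against 0.186% of all genes, and limma-voom called 0 (lowest adjusted p 0.328) against 0.311%.

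At an unadjusted p under 0.05, DESeq2 and edgeR each gave 7 genes, and the 7 were the same. These were Tnfrsf1a, Tnfrsf12a, Tnfrsf11b and Tnfrsf23, with higher means after IC, and Eda, Tnfrsf11a and Tnfrsf21, with lower means. They make up 21.9% of the 32, against 9.80% of all tested genes with DESeq2 and 9.64% with edgeR. The 3 IC and 3 vehicle values did not overlap for 6 genes (18.8%), 3 higher and 3 lower, against 15.8% of all tested genes (8.09% and 7.67%). The median log2 fold change was 0.13 over the 32 genes and −0.0019 over all tested genes, with 19 of the 32 above 0 and 13 below. The median absolute log2 fold change was 0.27 over the 32 and 0.17 over all.

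The precision differed widely between genes. The 10 genes with a mean of at least 500 normalized counts had standard errors of 0.089 to 0.17 on the log2 scale, and for 9 of them the 95% interval of the log2 fold change lay within 0.5 of 0. The exception was Eda, with a lower bound of −0.54. The 10 genes with a mean under 100 had standard errors of 0.40 to 1.13. How much of this came from few reads and how much from disagreement between libraries of a group was not tested. Over the 32 genes, 18 had an interval within 1 of 0. When 1 library was left out, the direction of 13 of the 32 turned in at least 1 of 6 fits. For Ltbr, Tnfrsf14, Tnfrsf19, Eda2r, Tnfsf9, Tnfsf12 and Tnfsf13, the value with all libraries was within 0.08 of 0. The others were Tnf, Tnfrsf4, Tnfrsf18, Tnfsf8, Tnfsf10 and Tnfsf15.

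**Figure D2:**
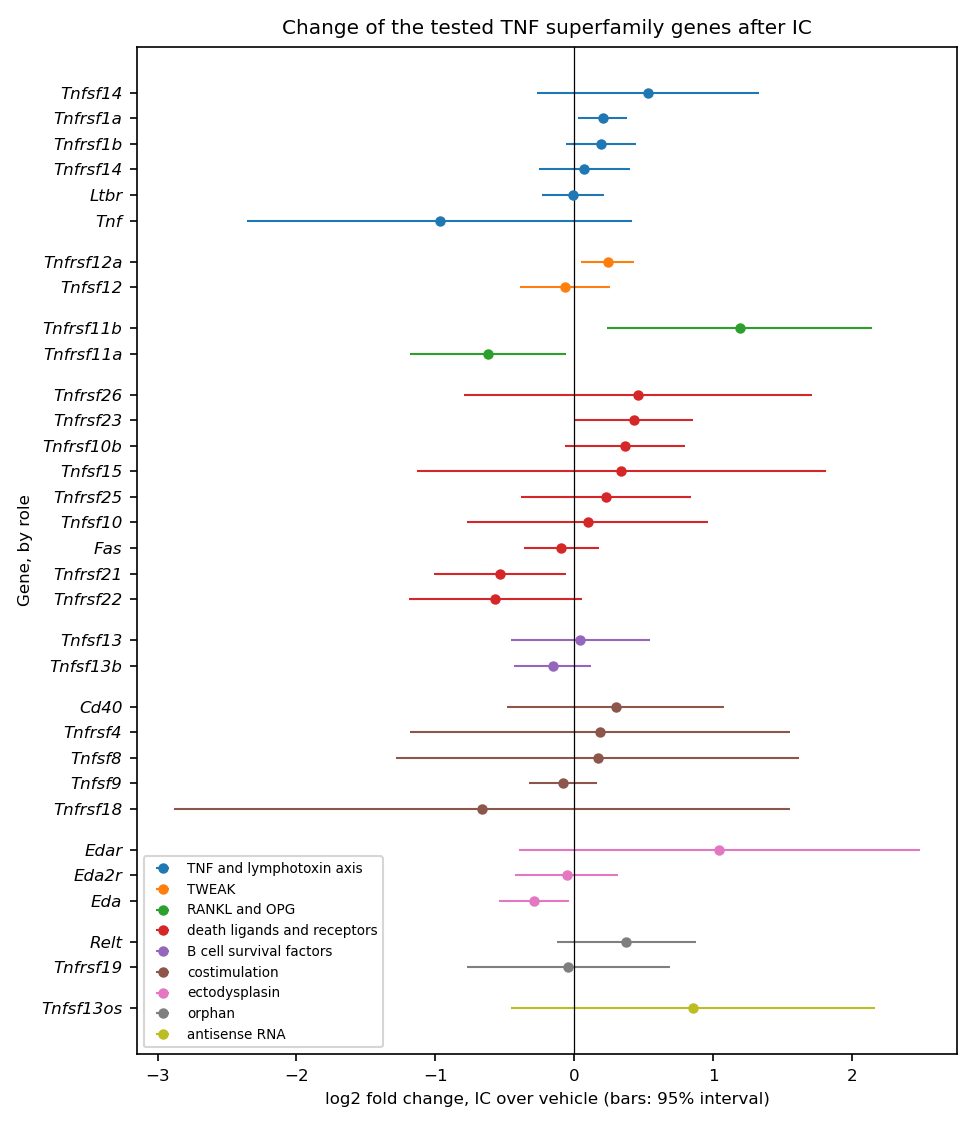
Log2 fold change of IC over vehicle for the 32 tested genes, grouped by role, with the 95% interval from DESeq2 as bars. The intervals of Tnfrsf1a, Ltbr and Tnfrsf12a are narrow. That of Ltbr spans 0, whereas those of Tnfrsf1a (0.030 to 0.38) and Tnfrsf12a (0.050 to 0.43) lie above 0. Those of Tnf, Tnfrsf18 and Edar are wide, and no gene was called.

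Summed over genes, the receptors and ligands lay apart between groups in opposite directions. The 23 receptors summed to 489, 534 and 550 CPM (counts scaled to the library total) in IC replicates 1, 2 and 3, and to 475, 466 and 468 in the vehicle replicates. All IC values exceeded all vehicle values, also as normalized counts, but the normalized sums overlapped once Tnfrsf1a was left out. The 13 ligands summed to 106, 103 and 113 CPM after IC and to 116, 120 and 117 after vehicle. The ligand sums overlapped as normalized counts, and without Eda they overlapped on both scales, so these sums are given as a description with no test. In bulk RNA, fewer cells of a type and less RNA per cell cannot be told apart.

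Among the receptors of TNF and lymphotoxin, Tnfrsf1a (GRCm38, chromosome 6, 125349362 to 125362484) had 9959, 11407 and 11727 normalized counts after IC and 9320, 9115 and 10298 after vehicle. IC replicate 1 fell between the vehicle values, so the groups overlapped by 1 library. The log2 fold change was 0.20 ± 0.089 (SE), and DESeq2 gave it an unadjusted p of 0.0215 and an adjusted p of 0.289. Tnfrsf1b (chromosome 4, 145213463 to 145246870), which lacks a death domain, had 2514, 2297 and 3136 after IC and 2172, 2583 and 2189 after vehicle. The groups overlapped, and the log2 fold change was 0.19 with a 95% interval of −0.057 to 0.45. It was 0.055 without IC replicate 3.

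Ltbr, which drives the noncanonical NF-kB route and lymphoid tissue formation, had 2915, 2912 and 3207 normalized counts after IC and 2598, 3396 and 3099 after vehicle. Its IC values all lay inside the vehicle range, and the interval of the log2 fold change, −0.23 to 0.21, was among the narrowest. Tnfrsf14 (HVEM), a receptor of LIGHT, had 759, 651 and 703 after IC and 545, 744 and 724 after vehicle, with overlap and a log2 fold change of 0.07 ± 0.17 (SE). Its ligand Tnfsf14 (LIGHT) was low, at 76.5 to 155 after IC and 61.4 to 111 after vehicle.

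Tnf itself (chromosome 17, 35199381 to 35202007) was a minor transcript. It had 39.7, 30.0 and 34.1 normalized counts after IC and 157, 19.8 and 25.5 after vehicle. Vehicle replicate 1 held 3.95 times the next highest library, and the other 5 libraries lay within 19.8 to 39.7. The log2 fold change was −0.97 ± 0.71 (SE, adjusted p 0.707 by DESeq2), and it was 0.61 without vehicle replicate 1, so the direction rested on that library.

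The TWEAK receptor had the smallest p-value of the 32 genes with DESeq2 and edgeR, and Tnfrsf11b with limma-voom. Tnfrsf12a (chromosome 17, 23675445 to 23677468), a small receptor known to be induced by growth factors and injury, had 3599, 3957 and 4085 normalized counts after IC and 3363, 3487 and 2991 after vehicle. All IC values exceeded all vehicle values, by 112 counts at the closest. The log2 fold change was 0.24 ± 0.098 (SE), with p 0.0133 unadjusted and 0.222 adjusted by DESeq2, and it ranged from 0.18 to 0.29 when any 1 library was left out. Its ligand Tnfsf12 had 812, 832 and 1186 after IC and 947, 941 and 1086 after vehicle, with overlap and a log2 fold change of −0.07 ± 0.17 (SE). Tnfsf12 shares 731 bases (48.3% of its exons) with the readthrough gene Tnfsfm13, so its level is uncertain.

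In the osteoclast axis, the decoy gene had the highest log2 fold change of the 32 genes. Tnfrsf11b (chromosome 15, 54250619 to 54278484), which encodes the secreted decoy osteoprotegerin, had 112, 193 and 194 normalized counts after IC and 142, 37.8 and 37.7 after vehicle. Vehicle replicate 1 lay above IC replicate 1, whereas the other 2 vehicle libraries lay far below every IC library. The log2 fold change was 1.19 ± 0.49 (SE), with p 0.0142 unadjusted and 0.230 adjusted by DESeq2.

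Without vehicle replicate 1, the log2 fold change of Tnfrsf11b was 2.14 ± 0.42 (SE), and DESeq2 called it (adjusted p 5.76e-05), as it did 3.52% of all genes in that fit (1.66% higher). 2 further tests without this library were chosen after seeing the data. edgeR gave Tnfrsf11b an adjusted p of 0.0394 (0.618% of all genes called, 0.249% higher) and limma-voom gave 0.0872 (1.05% called, 0.358% higher). Leaving out any other library gave adjusted p of 0.297 to 0.666 by DESeq2. The call therefore depended on 1 library, and with all 6 libraries Tnfrsf11b was not called.

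Tnfrsf11a, the receptor of RANKL, had 164, 198 and 115 normalized counts after IC and 203, 257 and 275 after vehicle. The groups did not overlap, but the closest libraries differed by 4.08 counts, and the log2 fold change was −0.62 ± 0.29 (SE, adjusted p 0.339 by DESeq2). It is a marker of osteoclast precursors as well as being present at low levels elsewhere. Among macrophage markers, Adgre1, Itgam, Ptprc and C1qa were not analysed here, and the sum of the other 6 of 10 was 32.1 to 50.6 CPM after IC and 39.5 to 51.6 after vehicle, of which 0 were called. Their part in the level of Tnfrsf11a was not tested.

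**Figure D3:**
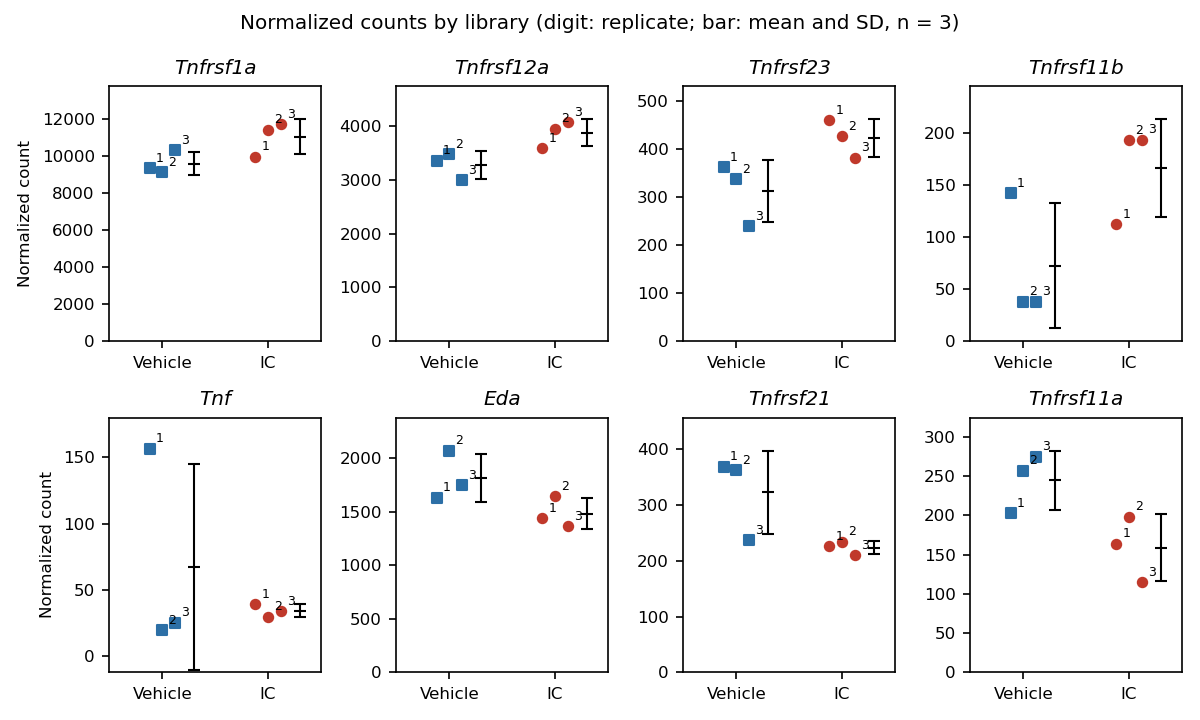
Normalized counts per library (digits give the replicate) for 8 genes, with the mean and SD of 3 libraries as bars. Vehicle replicate 1 stands above the other vehicle libraries for Tnf (157) and Tnfrsf11b (142), and only Tnfrsf12a, Tnfrsf23, Tnfrsf21 and Tnfrsf11a of the 8 have groups that do not overlap.

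Over all tested genes, vehicle replicate 1 was the farthest from its group by a chi-square on raw counts. Its chi-square per degree of freedom against vehicle replicates 2 and 3 was 56.8 and 34.3, and the other pairs within a group had 13.1 to 26.9, so no pair of libraries within a group were copies. This measure can also rise with depth, and vehicle replicate 1 was the deepest library (56714304 counts). The part of depth was not tested. Within the superfamily a different measure was used, which compares a library with all 5 others rather than with its own group. Values over 1.5-fold beyond the other 5 libraries numbered 2 in vehicle replicate 1, 4 and 3 in vehicle replicates 2 and 3, 3 in IC replicate 1 and 1 each in IC replicates 2 and 3. Those of vehicle replicate 1 were Tnf and Tnfrsf19. Tnfrsf11b in vehicle replicate 1 (142, against 37.8 and 37.7 in its group) was not counted, since 2 IC libraries were higher. Many of the counted values came from genes with means under 100, namely Tnf, Edar, Tnfrsf4, Tnfrsf18, Tnfsf13os, Tnfsf15 and Tnfsf8. These counts therefore do not rank the libraries by distance from their group. Vehicle replicate 1 held the highest value of Tnfrsf19 (TROY, an orphan receptor), 485 normalized counts against 120 to 288 in the other 5 libraries. Without it the log2 fold change of Tnfrsf19 was 0.69 ± 0.31 (SE, adjusted p 0.227 by DESeq2), against −0.04 ± 0.37 with all libraries. The summed level of 6 Schwann cell markers was 90.0 CPM in vehicle replicate 1, 40.5 and 47.3 in vehicle replicates 2 and 3, and 30.9 to 112 after IC, with 0 of the 6 called. The part of Schwann cell RNA in these values was not tested.

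The genes grouped as death ligands and receptors gave no common direction. The group held the decoys Tnfrsf22 and Tnfrsf23 and also Tnfrsf26, but not Tnfrsf1a. Of its 9 tested genes, 6 had a log2 fold change above 0 and 3 below. Fas (chromosome 19, 34290666 to 34327772), whose promoter window is shown above, had 860, 940 and 893 normalized counts after IC and 845, 1041 and 991 after vehicle. The IC values lay inside the vehicle range, and the interval of the log2 fold change was −0.37 to 0.18. Its ligand Fasl was close to absent, with at most 16 counts in a library.

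Tnfrsf10b, the mouse receptor that transmits the TRAIL death signal, had 268, 342 and 333 normalized counts after IC and 227, 266 and 238 after vehicle. The groups did not overlap, by 1.40 counts, and the log2 fold change was 0.37 ± 0.22 (SE, adjusted p 0.586 by DESeq2). Its ligand Tnfsf10 (TRAIL) had 82.6, 102 and 264 after IC and 97.6, 114 and 210 after vehicle. Replicate 3 was the highest in both groups, the groups overlapped, and the log2 fold change of 0.10 ± 0.44 (SE) was −0.60 without IC replicate 3. Tnfrsf22 and Tnfrsf23 are decoys of TRAIL that lie beside each other in the genome and differed in opposite directions, with log2 fold changes of −0.57 ± 0.32 and 0.43 ± 0.22 (SE). Neither was called (adjusted p 0.522 and 0.418 by DESeq2). They share 719 windows of 50 bases (17.3% and 18.0% of the windows in their transcripts), so reads could be split between them and both are uncertain.

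Tnfrsf23 had 461, 428 and 383 normalized counts after IC and 362, 338 and 240 after vehicle. Tnfrsf22 had 130 to 151 after IC and 152 to 304 after vehicle, where 304 came from vehicle replicate 2. Without vehicle replicate 2 its log2 fold change was −0.20. Tnfrsf21 (DR6), a death-domain receptor best known from neurons and lymphocytes, had 226, 235 and 211 after IC and 369, 363 and 237 after vehicle. Its groups were apart by 2.48 counts, and its log2 fold change was −0.53 ± 0.24 (SE, adjusted p 0.331 by DESeq2). Tnfrsf25 (DR3) and its ligand Tnfsf15 had log2 fold changes of 0.23 ± 0.31 and 0.34 ± 0.75, and Tnfrsf26 had 0.46 ± 0.64 (SE). The value of Tnfsf15 was −0.66 without IC replicate 1, which held 72.7 normalized counts, 2.27 times the next highest library.

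The B cell survival factor Tnfsf13b (BAFF) was expressed in every library, with 719, 728 and 772 normalized counts after IC and 745, 889 and 838 after vehicle. The groups overlapped at 1 library, and the log2 fold change was −0.16 ± 0.14 (SE). Tnfsf13 (APRIL) had a log2 fold change of 0.04 ± 0.26, but 983 bases (60.0%) of its exons belong to Tnfsfm13 as well. The antisense RNA Tnfsf13os overlaps it on the other strand, with 13.4 to 72.7 normalized counts and a log2 fold change of 0.85 ± 0.67. Whether the counting used strand is not given in the sources used here, so these 2 could not be told apart where they overlap.

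Of the costimulatory genes, Tnfsf9 was the one with high counts. It had 1546, 1222 and 1461 normalized counts after IC and 1473, 1557 and 1436 after vehicle, with overlap and a log2 fold change of −0.08 ± 0.12 (SE). Its receptor Tnfrsf9, a marker of activated T cells, was listed at 0 to 15 counts per library. Tnfsf9 overlaps Gm11110 on the opposite strand over 192 bases (14.9% of its exons). Cd40, which binds the ligand of helper T cells, had 74.9 to 104 after IC and 52.3 to 88.6 after vehicle. Tnfrsf4 (OX40), Tnfsf8 and Tnfrsf18 (GITR) had means of 37.3, 23.7 and 16.6, and log2 fold changes of 0.19 ± 0.70, 0.17 ± 0.74 and −0.66 ± 1.13 (SE). The directions of these 3 rested on single libraries, with −0.28 for Tnfrsf4 without vehicle replicate 2, −0.40 for Tnfsf8 without IC replicate 3 and 0.21 for Tnfrsf18 without vehicle replicate 3. Limma-voom gave Tnfrsf18 0.87 with all libraries. Tnfrsf18 also shares 414 bases (27.2%) with the antisense gene Gm16008.

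Ectodysplasin genes shape hair, teeth and glands. The ligand Eda (chromosome X, 99975606 to 100400762) had 1441, 1647 and 1363 normalized counts after IC and 1632, 2070 and 1749 after vehicle. IC replicate 2 lay just above vehicle replicate 1 and the others were apart, with a log2 fold change of −0.29 ± 0.13 (SE) and p 0.0229 unadjusted and 0.297 adjusted by DESeq2. It was −0.19 without vehicle replicate 2. The receptor Eda2r had 376 to 412 after IC and 349 to 450 after vehicle, with a log2 fold change of −0.05 ± 0.19. Edar was low, at 28.7 to 69.9 after IC and 6.1 to 54.9 after vehicle, with a log2 fold change of 1.04 ± 0.74 (SE). This was 2.25 without vehicle replicate 1, where DESeq2 gave no adjusted p and edgeR gave 0.214, and 0.59 without vehicle replicate 3. Relt, an orphan receptor first found in lymphoid tissue, had 488 to 563 after IC and 228 to 531 after vehicle. The value of 228 was that of vehicle replicate 2, and the log2 fold change of 0.38 ± 0.26 was 0.09 without it.

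Downstream of the receptors, 43 genes of TNF receptor signalling were tested, from TRAF adaptors and caspase-8 to the sheddases that release ligands. DESeq2 called 3 of them (2 higher and 1 lower), against 2.10% of all tested genes, and edgeR called 0 against 0.186%. At an unadjusted p under 0.05 DESeq2 gave 8 of the 43 and edgeR 9, against 9.80% and 9.64% of all tested genes. The median log2 fold change of the list was 0.08. Adam10, a protease that sheds many surface proteins, had 3658, 3497 and 3776 normalized counts after IC and 4387, 4380 and 4611 after vehicle. The groups were well apart, and it fell by 0.29 on the log2 scale (SE 0.084, adjusted p 0.0266 by DESeq2 and 0.147 by edgeR). Rhbdf1, an inactive rhomboid that helps the TNF-releasing protease Adam17 to mature, rose with 0.27 ± 0.081 (SE, adjusted p 0.0415). Trafd1, a TRAF-related negative regulator of innate signalling, rose with 0.32 ± 0.098 (adjusted p 0.0468).

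None of the 3 calls held in all 6 fits that each left out 1 library. Adam10 was called in 3 of 6 such DESeq2 fits (adjusted p 0.0163 to 0.154), and was lost when IC replicate 1 (0.0819), IC replicate 2 (0.154) or the third vehicle library (0.126) was dropped. Rhbdf1 and Trafd1 were called in 1 of 6 each, both without vehicle replicate 3 alone, with adjusted p up to 0.257 and 0.266. Adam17 itself had a log2 fold change of −0.10 ± 0.087 and was not called.

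Calls were also made among known targets of TNF and NF-kB. Of 41 genes listed, 37 were in the table and 33 were tested. Against 2.10% of all tested genes, DESeq2 called 6, with Cxcl1, Il6, Ier3, Ptgs2 and Tnfaip2 higher (log2 fold changes of 0.36 to 0.55) and Vcam1 lower (−0.42), and edgeR called 0 (adjusted p of the 6 from 0.0836 to 0.152). At an unadjusted p under 0.05 each tool gave 18 of the 33, against 9.80% of all tested genes with DESeq2 and 9.64% with edgeR. With DESeq2 17 of the 18 were higher after IC, against 979 of 1952 over all tested genes. The median log2 fold change of the list was 0.21. Many stimuli besides TNF act on these genes, and the list was chosen with results of these data known.

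Ptgs2 (cyclooxygenase-2, which makes prostaglandin precursors) had 15630, 14674 and 16064 normalized counts after IC and 11244, 12451 and 12501 after vehicle. All IC values lay above, and it rose with a log2 fold change of 0.36 ± 0.078 (SE, adjusted p 0.000708 by DESeq2). Il6, the inflammatory cytokine, had 9670, 8776 and 12711 after IC and 8101, 6311 and 6940 after vehicle, and rose with 0.55 ± 0.13 (SE, adjusted p 0.00183). The call of Il6 was lost when IC replicate 3 (0.0630) or either vehicle replicate 2 (0.0759) or 3 (0.0754) was dropped. The calls of the other 5 held in all 6 fits that left out 1 library. Vcam1, a leukocyte adhesion molecule, had 4078, 3899 and 4046 after IC and 4738, 5900 and 5500 after vehicle, with every IC value below. The NF-kB feedback inhibitors Tnfaip3 and Nfkbia had log2 fold changes of 0.20 ± 0.090 and 0.13 ± 0.075 and were not called (adjusted p 0.308 and 0.582). Cxcl5, named after its values were seen, had the highest log2 fold change of the list, 3.17 ± 1.22 (SE, adjusted p 0.182), from 1073 counts in IC replicate 3 against 30.2 to 146 in the other libraries. Without IC replicate 3 it was 0.98, and without IC replicate 1 it was 3.71 with an adjusted p of 0.0139.

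**Figure D4:**
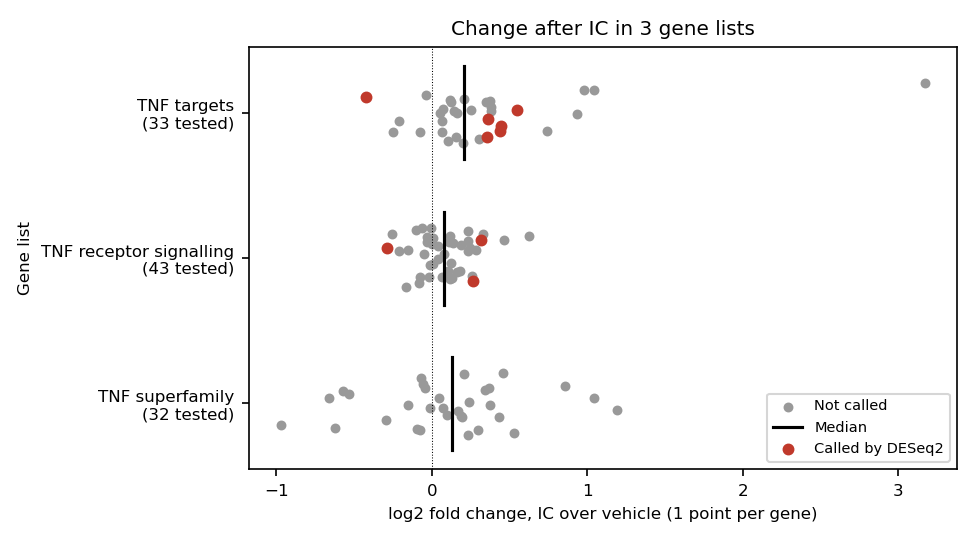
Log2 fold change of each tested gene in the TNF target list (33), the TNF receptor signalling list (43) and the TNF superfamily (32), with the median as a bar and genes called by DESeq2 in red. The called genes are 6, 3 and 0, against 2.10% of all tested genes, whereas edgeR called 0 in each list against 0.186%. The medians are 0.21, 0.08 and 0.13, against −0.0019 over all tested genes. The lists were chosen with earlier results of these data known.

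The labelled cell type was checked against markers, summed as CPM with no test on a sum. The 10 fibroblast markers summed to 45050 to 46904 after IC and 46370 to 56336 after vehicle, and 2 were called lower. The 6 lining fibroblast markers summed to 754 to 867 and 543 to 690, with 1 called higher and 2 lower. Of these, Prg4 held 361 to 473 after IC and 178 to 281 after vehicle. Clic5 and Tspan15 were lower in every IC library, and Hbegf, Htra4 and Cd55 overlapped between groups. Lymphocyte signal was small, with 2 of 7 T cell and NK cell markers in the table at 0.925 to 1.52 after IC and 0.648 to 1.60 after vehicle. For B and plasma cells, 3 of 7 markers were in the table, at 2.65 to 3.76 and 6.53 to 9.49, with 1 called lower. Only 1 of 6 neutrophil markers was in the table, at 0.111 to 0.261 after IC and at 0 in every vehicle library.

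Markers of several other cell types were called lower after IC, but of the sums given next only that of satellite cells lay apart between groups. The 10 endothelial markers summed to 219 to 301 CPM after IC and 301 to 356 after vehicle, with 3 called lower. The 6 satellite cell markers summed to 18.0 to 46.4 and 47.3 to 100, with 1 called lower, and the 8 skeletal muscle markers to 14.2 to 27.5 and 24.4 to 55.5, with 2 called lower. The 7 mural cell markers summed to 490 to 589 and 571 to 622, with 1 called lower. The 7 chondrocyte and bone markers in the table summed to 62.3 to 68.1 and 62.8 to 74.9, and the 4 adipocyte markers to 1.48 to 3.11 and 1.76 to 3.77, with 0 called in either. Log2 fold changes were below 0 for all 10 endothelial, 6 satellite cell and 8 skeletal muscle markers (medians −0.48, −1.85 and −1.82). Among tested markers, they were below 0 for 5 of 7 mural, 4 of 5 chondrocyte and bone and 2 of 3 adipocyte markers. Over all tested genes, 10044 of 19925 were below 0. These values stand beside the lower means of Eda, Tnfrsf11a, Tnfrsf21, Tnfrsf22, Vcam1 and Adam10 after IC, and their part in those values was not tested.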

How the data were processed

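Raw gene counts were deposited. To make them, the authors trimmed reads with Trim Galore, aligned them to mm10 with HISAT2 and counted them with featureCounts, per the labels and the methods. Tool versions, annotation and strand setting are not given in the sources used here, and labels and methods name different total RNA kits. The methods also name sva for batch effects, and the labels give no batch. Each of 6 single-library files equalled its column of the combined table.

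Groups and replicate numbers came from the sample titles. Genes reaching 10 counts in 3 or more libraries entered DESeq2 (version 1.42.0) on R 4.3.3, with default settings, treatment as the only term and Benjamini-Hochberg adjustment over all genes tested. Log2 fold changes are unshrunken. Alternatives used edgeR (4.0.16), limma-voom (limma 3.58.1), sva (3.50.0), other scalings and filters, a replicate block and each library left out, and edgeR and voom without vehicle replicate 1 were added after seeing the data. Fits were tested on simulated data, and the outcome of that is not given here. Libraries were not paired by replicate number, as no source used here says that the numbers pair mice. After centring within each group, same-numbered libraries had correlations of −0.050, −0.050 and −0.0100, and the others −0.041 to 0.099. Centring over 3 libraries constrains these values, so they cannot exclude a pairing.

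The superfamily genes, lists and naming rule were chosen with earlier results of these data known. The rule named Tnfrsf1a, Tnfrsf1b, Ltbr, Fas, Tnfrsf12a, Tnfsf12, Tnfrsf11b, Tnfsf13b, Tnfsf10 and Tnfrsf10b, any superfamily gene called or with a mean of at least 500, and called genes of both pathway lists. Other superfamily genes are given by mean or range, and those given for every library were chosen after their values were seen. Coordinates and exon lengths are from GENCODE M21 (GRCm38, the assembly of mm10), in which all 37 symbols were found.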

Additional observations from a re-analysis of the deposited data

How the results depend on the processing

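With all 6 libraries, the superfamily had 0 calls under every adjusted test run, and 7 genes at an unadjusted p under 0.05. Leaving out 1 library gave 0 to 1 call, and edgeR without vehicle replicate 1, added after seeing the data, gave 1, all of them Tnfrsf11b, while limma-voom without it gave 0. Of the values of single superfamily genes under these alternatives, 538 with an adjusted p stayed above the threshold and 2 passed it, both for Tnfrsf11b. A further 58 had no adjusted p and cannot show stability. Over all tested genes DESeq2 called 419, edgeR 37, limma-voom 62, edgeR with the replicate block 22, an unadjusted p under 0.05 gave 1952, and fits without 1 library gave 281 to 677. Without vehicle replicate 1, edgeR called 119 and limma-voom 202. The signalling list had 3 calls with DESeq2, 0 with edgeR, limma-voom, and the replicate block in either tool, 1 with 1 surrogate variable, 0 to 2 without 1 library, and 0 with edgeR or limma-voom without vehicle replicate 1. The target list had 6 calls with DESeq2, 0 with edgeR, limma-voom and edgeR with the block, 5 to 12 without 1 library (12 without IC replicate 1), and 2 with edgeR and 3 with limma-voom without vehicle replicate 1. The cause of these differences was not tested. The block in DESeq2 gave 320 calls over all genes, 0 in the superfamily and 7 in the target list. No source used here says whether the numbers pair the libraries. The planned log2 ratio of Tnfsf11 to Tnfrsf11b was not run, since Tnfsf11 was not analysed here. Standard errors reach 1.13 on the log2 scale for the 10 genes with a mean under 100. Whether this reflects depth or spread between libraries was not tested.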
